A study of Mus musculus with 24 samples.

Results

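Genes encoding 9 nuclear receptors of the liver were followed in hepatocytes of aged mice under a fatty diet and under rapamycin: Ppara, Rxra, Nr1h4, Nr1h3, Nr1i2, Nr1i3, Nr5a2, Esr1 and Nr2f6. They were taken by gene symbol from the tables of counts and of FPKM (fragments per kilobase of gene, scaled to library size), and were 9 of the 49 nuclear receptor genes and of the 55421 genes listed. All 9 passed the filter on low counts, which left 13847 genes for testing.

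Nuclear receptors are transcription factors that bind DNA directly, and many of them are switched by small lipid molecules. RXRα, from Rxra, is the common partner with which PPARα (Ppara), FXR (Nr1h4), LXRα (Nr1h3), PXR (Nr1i2) and CAR (Nr1i3) bind DNA as heterodimers. In hepatocytes PPARα drives fatty acid oxidation and ketone production, FXR senses bile acids, LXRα senses oxysterols, and PXR and CAR induce the enzymes that clear drugs and steroids. LRH-1 (Nr5a2) binds DNA as a monomer and acts in bile acid and cholesterol metabolism, ERα (Esr1) is the oestrogen receptor of the liver, and EAR2 (Nr2f6) is an orphan receptor of the COUP-TF family.

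The samples were hepatocytes from 24 male C57BL/6J mice, released by a perfusion of the liver in 2 steps. From 4 months of age the mice received normal diet with vehicle or with rapamycin, and at 18 months they entered one of 3 regimens for 9 weeks. There were 8 animals kept on normal diet with vehicle (ND + veh), 7 moved to a high-fat diet with vehicle (HFD + veh, 60% of calories from fat) and 9 moved to the high-fat diet while rapamycin at 42 ppm went on (HFD + eRapa, rapamycin in a polymer coat). No animals on normal diet with rapamycin were analysed here, so an effect of the drug that needs no fatty diet cannot be told apart from its effect on that diet, nor can early treatment from treatment during the diet.

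Each library held 17.7 to 25.9 M counts, and all carried the same batch label. Of 8 hepatocyte markers, 7 were found in the tables, and their summed level was between 52465 and 166305 CPM (counts per M counts) in every library. Markers of other liver cells moved between the groups: the summed level of 9 macrophage and Kupffer cell markers had a median of 200.4 CPM in ND + veh (range 33.2 to 968), 1872 CPM in HFD + veh (138 to 4084) and 152 CPM in HFD + eRapa (9.57 to 879), with no marker at 0 in all libraries. Of these 9 markers, 3 rose in HFD + veh against ND + veh and 7 fell in HFD + eRapa against HFD + veh, where all 6 endothelial and all 6 stellate cell markers fell too. In HFD + eRapa against ND + veh, 5 of the 6 stellate cell markers were lower (summed median 34.5 beside 104.8 CPM), and 0 macrophage and 0 endothelial markers were called. Of 3 cholangiocyte markers tested, 3 rose in HFD + veh and 1 was higher in HFD + eRapa, each against ND + veh. Of all genes tested, 16.0% were called higher and 9.86% lower in HFD + veh against ND + veh. These shares were 10.9% and 21.1% in HFD + eRapa against HFD + veh, and 6.93% and 6.54% in HFD + eRapa against ND + veh. The 3 of 9 macrophage markers called on the diet (33.3%) stand beside 25.9% of all genes called in either direction. In bulk RNA of this kind, fewer cells of a type and less RNA per cell cannot be told apart.

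The receptors differed widely in level. On the FPKM scale, which is per length of gene and allows genes to be compared, Hnf4a led the 49 receptors in ND + veh at a mean of 122, followed by Rxra at 75.7 ± 21.2 (SD, n = 8), Nr2f6 at 64.5 ± 10.8, Nr1h3 at 55.4 ± 7.79, Nr1i3 at 43.6 ± 9.999 and Nr1h4 at 42.3 ± 8.70. Ppara stood at 33.8 ± 10.8 FPKM, Nr1i2 at 20.6 ± 2.84 and Nr5a2 at 13.6 ± 2.62, whereas Esr1 at 2.16 ± 0.72 was ranked 30 of the 49. Within the animals of ND + veh, the FPKM order was resolved from Ppara down: Ppara was above Nr1i2 (adjusted p = 0.0375), Nr1i2 above Nr5a2 and Nr5a2 above Esr1 (both adjusted p = 0.0313) by two-sided exact permutation of signs, adjusted over 24 neighbouring pairs. Neighbours from Rxra down to Ppara did not differ beyond their spread, with adjusted p from 0.0781 to 0.878. In HFD + eRapa the FPKM of Rxra (92.9 ± 22.8, n = 9) was above that of Nr2f6, the next receptor, in 9 of 9 animals (adjusted p = 0.0234, exact permutation). In HFD + veh the next receptor was Nr1h3, at 55.2 ± 6.80 FPKM against 60.4 ± 25.6 for Rxra (adjusted p = 0.929, n = 7, exact permutation). Rxra was not tested against Nr2f6 in that group.

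Upstream sequence is shown for the 4 receptors whose transcripts passed a test below, Rxra, Ppara, Nr1i2 and Esr1, because members that move together could share letters near their starts. RefSeq promoter windows of the GRCm38.p6 build, from 250 bases before a start site, matched all 9 receptors with 13 windows, and only the longest stretch outside annotated exons is printed. Each is written 5′ to 3′ along the gene, and capitals mark a match, on either strand, to the receptor hexamer AGGTCA, the GC box GGGCGG or the CCAAT box.
Rxra, first start, chr2:27676951-27677200, plus strand: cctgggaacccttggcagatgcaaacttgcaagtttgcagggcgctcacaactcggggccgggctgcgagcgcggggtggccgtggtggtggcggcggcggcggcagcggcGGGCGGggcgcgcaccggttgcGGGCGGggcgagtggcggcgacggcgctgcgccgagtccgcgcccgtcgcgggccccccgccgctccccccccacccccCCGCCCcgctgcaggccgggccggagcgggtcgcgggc
Rxra, second start, chr2:27709042-27709291, plus strand: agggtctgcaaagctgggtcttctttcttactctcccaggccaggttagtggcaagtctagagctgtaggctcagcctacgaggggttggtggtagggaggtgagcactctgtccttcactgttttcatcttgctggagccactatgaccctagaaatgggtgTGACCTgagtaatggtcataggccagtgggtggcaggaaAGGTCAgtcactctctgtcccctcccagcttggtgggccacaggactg
Ppara, chr15:85735714-85735775, plus strand: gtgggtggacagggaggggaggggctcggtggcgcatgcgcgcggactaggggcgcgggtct
Nr1i2, chr16:38294825-38295074, minus strand: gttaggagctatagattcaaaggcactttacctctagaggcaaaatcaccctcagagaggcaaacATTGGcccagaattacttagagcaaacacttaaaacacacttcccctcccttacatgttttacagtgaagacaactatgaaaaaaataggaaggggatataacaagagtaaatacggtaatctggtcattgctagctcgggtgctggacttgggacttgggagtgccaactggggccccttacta
Esr1, second start, chr10:4709908-4710154, plus strand: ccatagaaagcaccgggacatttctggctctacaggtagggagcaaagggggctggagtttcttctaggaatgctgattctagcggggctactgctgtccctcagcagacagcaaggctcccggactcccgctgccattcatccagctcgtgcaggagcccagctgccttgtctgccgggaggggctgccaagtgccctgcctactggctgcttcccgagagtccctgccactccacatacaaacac

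The first Rxra start carried 3 GC boxes, while the second carried the receptor hexamer at -87 to -82 and again at -48 to -43 relative to the start. Over all 13 windows AGGTCA was found in 3, at Rxra, Nr5a2 and Nr1h4, beside 14.0% of all 32851 mouse promoter windows searched alike on both strands. GGGCGG was also found in 3 windows (Rxra, Nr2f6 and, outside the stretch printed, Ppara) beside 32.7% of all, CCAAT in 3 beside 33.8%, and TATAAA in 1 beside 12.4%. The paired forms AGGTCANAGGTCA, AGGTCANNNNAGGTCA and GGTCANNNTGACC (N being any base), which are classical elements of PPAR, of LXR and of oestrogen receptor, were in none of the 13 windows and in at most 0.0639% of all. These are counts of letters and do not show binding.

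The first question was how the fatty diet alone changed the receptors of aged hepatocytes. In HFD + veh against ND + veh, Esr1 rose 3.25-fold (95% interval 2.27 to 4.65) and no other receptor of the 9 passed the test. The other receptors had estimates between 0.69-fold (Nr2f6) and 1.02-fold (Nr1h4), and the median log2 fold change of the 9 was -0.25, beside 0.05 over all genes tested. The 1 call in 9 compares with 25.9% of all genes tested that passed an adjusted p of 0.05 in this comparison, 16.0% higher and 9.86% lower (2218 and 1366 genes; on log2(FPKM + 0.1) in limma, 1158 and 1182). The share of receptors called was thus below that of all genes, and for none of the 9 were the groups free of overlap, beside 2.44% of all genes.

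The second question was what rapamycin changed on the fatty diet. In HFD + eRapa against HFD + veh, Ppara rose 2.08-fold (95% interval 1.48 to 2.93), Rxra 1.47-fold (1.10 to 1.96) and Nr1i2 1.33-fold (1.06 to 1.65), and no receptor fell. Of the 9 estimates, 8 were above 0, with a median log2 fold change of 0.41 beside -0.04 over all genes. The count of 3 in 9 is near the background of 32.0% of all genes called, of which 10.9% were higher and 21.1% lower, and for none of the 9 were the groups free of overlap, beside 2.59% of all genes (1.29% in each direction). With an immune marker score of each library as a covariate, 1 of the 9 (Ppara) was called, and with a score of endothelial, stellate and cholangiocyte (nonparenchymal) markers 1 of 9 (Esr1, lower), beside 969 and 752 of all 13847 genes in those fits.

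Last, the animals with both fatty diet and rapamycin were set against those with neither. In HFD + eRapa against ND + veh, Esr1 was 2.51-fold higher (95% interval 1.78 to 3.53) and Ppara 1.63-fold higher (1.18 to 2.25), while the other 7 receptors did not pass. The 2 calls in 9 compare with 13.5% of all genes, 6.93% higher and 6.54% lower (959 and 906 genes; on log2(FPKM + 1), 519 and 925). The comparisons share animals. Both comparisons with HFD + veh use the same HFD + veh libraries, and both against normal diet use the same ND + veh libraries. Both comparisons of HFD + eRapa, in which Ppara was called, use the same HFD + eRapa libraries.

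**Figure D1:**
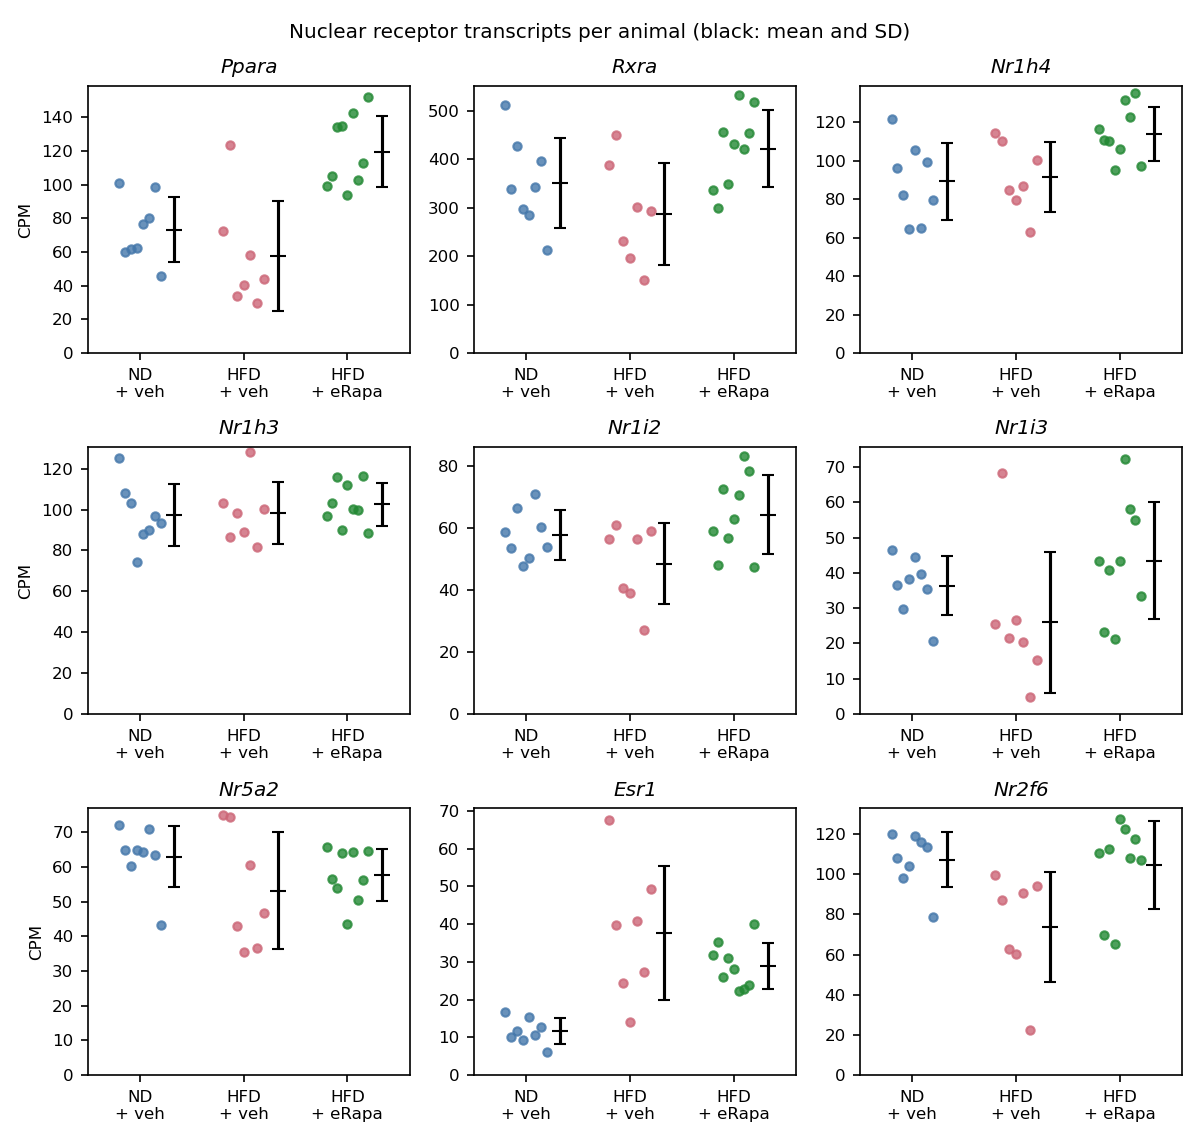
Level in CPM of the 9 receptor transcripts in each animal (y axis, starting at 0) by group (x axis), each point being 1 animal and the black bar the group mean with its SD. Esr1 in all 9 HFD + eRapa animals lies above all 8 ND + veh animals, and the HFD + veh group is the widest for Nr1i3, from 4.81 to 68.3 CPM.

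**Figure D2:**
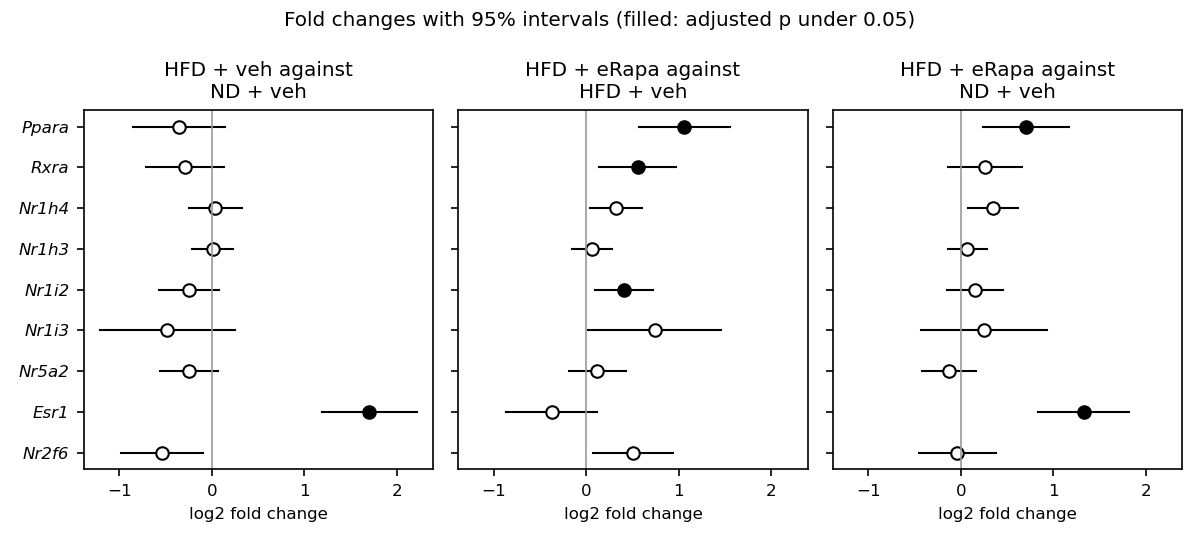
Log2 fold change of each receptor (x axis) in the 3 comparisons, with the 95% interval of the edgeR fit as a line and filled points for an adjusted p under 0.05. Esr1 is filled in both comparisons with ND + veh, and Ppara in both comparisons of HFD + eRapa.

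Rxra, the common partner, lies at chr2:27676440-27762957 on the plus strand (GRCm38, Gencode M21). Its level in ND + veh had a lowest value of 212, a median of 340.2 and a highest of 512 CPM. HFD + veh ran from 150.3 through 293 to 449 CPM, and HFD + eRapa from 299 through 432 to 532 CPM. All 3 ranges overlapped, although each of the 9 HFD + eRapa animals was above the HFD + veh median. The group means were 351 ± 93.1 (SD, n = 8), 287 ± 105 (n = 7) and 422 ± 80.1 CPM (n = 9). Rxra rose by a log2 fold change of 0.55 (SE 0.20) with rapamycin on the fatty diet (adjusted p = 0.0364). Against ND + veh it stood at -0.29 in HFD + veh (95% interval -0.71 to 0.13, adjusted p = 0.295) and at 0.26 in HFD + eRapa (-0.13 to 0.66, adjusted p = 0.416). With the immune marker covariate the log2 fold change of this rise was 0.11 (adjusted p = 0.703) and with the nonparenchymal one 0.03 (adjusted p = 0.931). Calls over all genes also dropped in these fits, from 4432 to 969 and 752. The marker scores differ between the groups, so cell makeup and treatment cannot be told apart here, and the cause was not tested. Leaving out HFD + veh replicate 6 gave 0.45 (adjusted p = 0.0840), replicate 4 gave 0.48 (0.0859) and replicate 3 gave 0.51 (0.0790), and leaving out HFD + eRapa replicate 3, 5, 6, 8 or 9 also lost the call (0.0523 to 0.0674).

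Ppara, the receptor of fatty acid oxidation, lies at chr15:85734983-85802819 on the plus strand. In ND + veh its lowest, median and highest values were 45.8, 69.6 and 101 CPM, in HFD + veh 30.0, 44.0 and 123 CPM, and in HFD + eRapa 93.8, 113 and 152 CPM. The HFD + eRapa animals were all above 6 of the 7 HFD + veh animals, and the exception was HFD + veh replicate 2 at 123 CPM. Of the 9, 7 lay above every ND + veh animal. Means were 73.4 ± 19.4, 57.4 ± 32.6 and 120 ± 21.3 CPM in that order. Ppara rose by 1.06 (log2, SE 0.24, adjusted p = 0.00236) in HFD + eRapa against HFD + veh and by 0.71 (SE 0.22, adjusted p = 0.0363) against ND + veh. The first of these stayed called whichever library was left out (0.96 to 1.37) and with the immune covariate (0.74, adjusted p = 0.0266), and it missed the threshold with the nonparenchymal covariate (0.66, adjusted p = 0.0709). The second was lost on leaving out any one of ND + veh replicates 2, 3, 4, 5, 6 and 8 or HFD + eRapa replicates 3, 4, 6 and 9, with adjusted p of up to 0.0801. In HFD + veh against ND + veh the estimate was -0.35 (95% interval -0.85 to 0.14, adjusted p = 0.276), and without HFD + veh replicate 2 it was -0.66 (adjusted p = 0.0142).

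FXR, the bile acid sensor, is encoded by Nr1h4 at chr10:89454234-89533585 on the minus strand. Nr1h4 ran from 64.8 through 89.3 to 122 CPM in ND + veh, from 63.1 through 87.1 to 115 CPM in HFD + veh and from 95.2 through 111 to 135 CPM in HFD + eRapa. The groups overlapped, but all 9 HFD + eRapa animals were above the medians of both other groups. The fatty diet left a log2 fold change of 0.03 (95% interval -0.25 to 0.32). Both comparisons of HFD + eRapa missed the threshold, at 0.32 (0.04 to 0.60, adjusted p = 0.0745) against HFD + veh and 0.35 (0.08 to 0.62, adjusted p = 0.0753) against ND + veh. The first passed without HFD + veh replicate 1 (adjusted p = 0.0359) or 2 (0.0443), and the second without ND + veh replicate 1 (0.0428), with only 2 groups (0.0499), with the replicate block (0.0325) and with the immune covariate (0.0202).

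LXRα, the oxysterol sensor, is encoded by Nr1h3 at chr2:91184061-91202834 on the minus strand. Its estimates were the smallest of the 9 for the diet and for rapamycin on the diet. Its values ran from 74.5 through 95.4 to 125 CPM in ND + veh, from 81.8 through 98.5 to 128 CPM in HFD + veh and from 88.7 through 100.1 to 116 CPM in HFD + eRapa. The 3 ranges lay largely on top of each other. The log2 fold changes were 0.01 (95% interval -0.21 to 0.23) for the diet, 0.06 (-0.15 to 0.28) for rapamycin on the diet and 0.07 (-0.13 to 0.28) for both together against neither. As folds, the diet interval runs from 0.865-fold to 1.17-fold, and for rapamycin on the diet from 0.900-fold to 1.21-fold. Nr1h3 overlaps a transcript on its own strand and a small nuclear RNA on the other, so its counts are uncertain.

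The drug sensors were PXR, from Nr1i2 at chr16:38248323-38294824 on the minus strand, and CAR, from Nr1i3 at chr1:171213970-171220701 on the plus strand. Nr1i2 had lowest, median and highest values of 47.6, 56.3 and 71.0 CPM in ND + veh, of 27.1, 56.4 and 61.1 CPM in HFD + veh and of 47.4, 62.8 and 83.3 CPM in HFD + eRapa. The groups overlapped, with 5 of 9 HFD + eRapa animals above every HFD + veh animal. Nr1i2 rose by 0.41 (log2, SE 0.15, adjusted p = 0.0444) in HFD + eRapa against HFD + veh. It was not called against ND + veh in either group, at -0.25 (95% interval -0.58 to 0.07) for HFD + veh and 0.15 (-0.15 to 0.46) for HFD + eRapa. The call lay close to the threshold: it was lost with either marker covariate (0.24 and 0.20, adjusted p = 0.426 and 0.582), on the FPKM scale, and on leaving out any one of HFD + veh replicates 3, 4 and 6, HFD + eRapa replicates 3, 5, 6, 7 and 8 and ND + veh replicate 7 (adjusted p of up to 0.0973).

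Nr1i3 had values of 20.7, 37.4 and 46.7 CPM (lowest, median and highest) in ND + veh, of 4.81, 21.4 and 68.3 CPM in HFD + veh and of 21.3, 43.4 and 72.4 CPM in HFD + eRapa. No other receptor of the 9 varied so much within HFD + veh: the highest animal, replicate 2, was 14.2-fold above the lowest, replicate 6, and the coefficient of variation was 76.8%. The fitted differences were correspondingly wide, at -0.48 (95% interval -1.21 to 0.25, adjusted p = 0.315) for the diet and 0.74 (0.02 to 1.45, adjusted p = 0.103) for rapamycin on the diet. Without HFD + veh replicate 2 they were -0.94 (adjusted p = 0.0220) and 1.19 (adjusted p = 0.00380), and both passed. Against ND + veh, HFD + eRapa differed by 0.26 (-0.42 to 0.94, adjusted p = 0.687). Nr1i3 overlaps Tomm40l on the opposite strand, and whether the counting used strand is not stated in the sources used here.

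LRH-1 is encoded by Nr5a2 at chr1:136842571-136960448 on the minus strand. Nr5a2 ran from 43.3 through 64.5 to 72.0 CPM in ND + veh, from 35.6 through 46.8 to 75.03 CPM in HFD + veh and from 43.6 through 56.5 to 65.7 CPM in HFD + eRapa. The HFD + veh animals reached both lower and higher than those of HFD + eRapa. No comparison passed: the log2 fold changes were -0.25 (95% interval -0.56 to 0.07, adjusted p = 0.235) for the diet, 0.12 (-0.19 to 0.43, adjusted p = 0.574) for rapamycin on the diet and -0.13 (-0.42 to 0.17, adjusted p = 0.634) for HFD + eRapa against ND + veh.

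Esr1, at chr10:4611593-5005614 on the plus strand, showed the largest fold change of the 9 in any of the 3 comparisons. Its lowest, median and highest values were 5.97, 11.1 and 16.7 CPM in ND + veh, 14.1, 39.8 and 67.7 CPM in HFD + veh and 22.2, 28.2 and 40.0 CPM in HFD + eRapa. Of the HFD + veh animals 6 of 7 were above every ND + veh animal, and the exception was replicate 4 at 14.1 CPM. All 9 HFD + eRapa animals were above every ND + veh animal, a separation shown by 3.37% of all genes tested in that comparison and by 2.14% in this direction. The depth behind these levels was 126 to 295 counts per library in ND + veh, 356 to 1297 in HFD + veh and 385 to 759 in HFD + eRapa. Esr1 rose by 1.70 (log2, SE 0.25, adjusted p = 9.21e-05) in HFD + veh and by 1.33 (SE 0.24, adjusted p = 0.000445) in HFD + eRapa, each against ND + veh. Neither call was lost with any other setting or with any library left out (1.17 to 1.96 over the settings and 1.49 to 1.82 over the libraries for the first). Rapamycin on the diet gave -0.38 (95% interval -0.87 to 0.12, adjusted p = 0.232), and with the nonparenchymal covariate -0.78 (adjusted p = 0.0355). The spread within HFD + veh (SD 17.8 CPM around 37.6, n = 7) was larger than in HFD + eRapa (6.06 around 29.0, n = 9), a description for which no test was made.

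EAR2 is encoded by Nr2f6 at chr8:71374123-71381960 on the minus strand, where it overlaps Ocel1 on the other strand. Nr2f6 ran from 79.0 through 111 to 120.0 CPM in ND + veh, from 22.2 through 87.0 to 99.7 CPM in HFD + veh and from 65.5 through 111 to 128 CPM in HFD + eRapa. Of the 9 HFD + eRapa animals, 7 were above every HFD + veh animal, and the exceptions were replicates 2 and 4. Both contrasts with HFD + veh missed the threshold, at -0.54 (95% interval -0.99 to -0.10, adjusted p = 0.0621) against ND + veh and 0.51 (0.07 to 0.94, adjusted p = 0.0658) for HFD + eRapa. The first passed without HFD + veh replicate 1 (adjusted p = 0.0350) or 7 (0.0471) or ND + veh replicate 8 (0.0438), and the second without HFD + veh replicate 1 (0.0354) or 7 (0.0459) or HFD + eRapa replicate 2 (0.0402) or 4 (0.0363). HFD + eRapa and ND + veh differed by -0.04 (-0.45 to 0.38).

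The macrophage markers were set beside the receptors animal by animal. Within HFD + veh, replicates 1 and 2 had the lowest macrophage sums, both 138 CPM, and the highest Rxra (388 and 449 CPM) and Ppara (72.5 and 123 CPM) of the group. Replicate 6 had the highest macrophage sum of all 24 animals, 4084 CPM, and the lowest Rxra (150.3 CPM), Ppara (30.0 CPM), Nr1i2 (27.1 CPM), Nr1i3 (4.81 CPM) and Nr2f6 (22.2 CPM) of all 24. In ND + veh the animal with the highest sum, replicate 8 at 968 CPM, had the lowest Rxra of its group at 212 CPM. The next highest sum, replicate 6 at 576 CPM, came with Rxra of 343 CPM, near the group median of 340.2. In HFD + eRapa the highest sum, replicate 2 at 879 CPM, came with the lowest Rxra of the group (299 CPM). The lowest Ppara of that group (93.8 CPM) was in replicate 5, where the sum was only 24.9 CPM. Esr1 within HFD + veh was highest in replicate 1 (67.7 CPM) and lowest in replicates 3, 4 and 6 (24.3, 14.1 and 27.2 CPM), 3 of the 4 animals with the highest sums, and in ND + veh it was lowest in replicate 8 (5.97 CPM). With the immune covariate the Esr1 rise on the diet was 1.96 (log2, adjusted p = 1.50e-05). These are values of single animals, and the part of other cell types in the receptor levels was not tested.

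**Figure D3:**
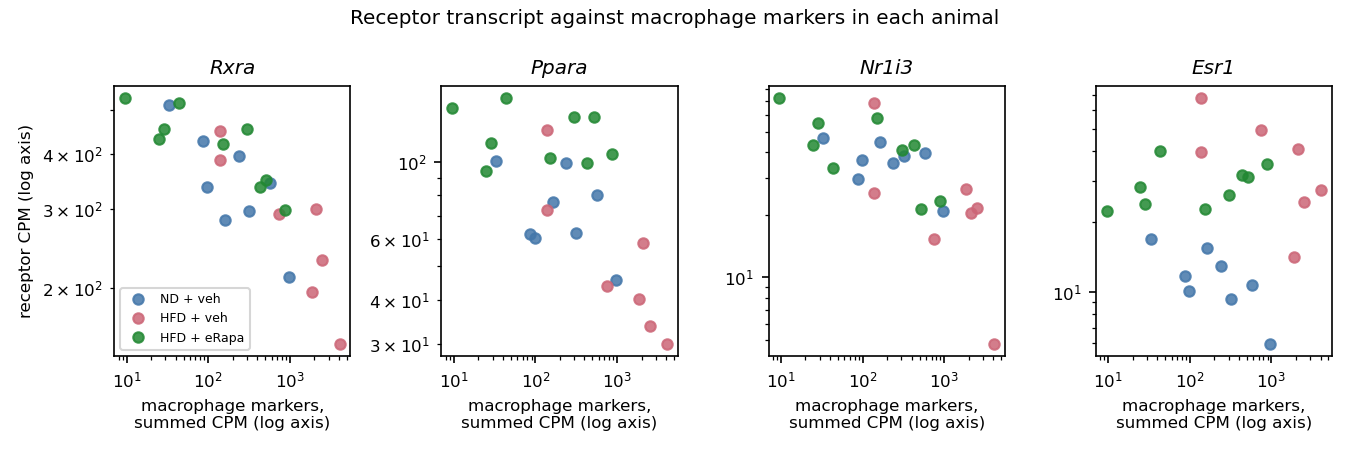
Level of Rxra, Ppara, Nr1i3 and Esr1 in each animal (y axis, CPM, log scale) against the summed level of 9 macrophage markers (x axis, CPM, log scale), each point being 1 animal coloured by group. Replicate 6 of HFD + veh, farthest to the right at 4084 CPM of markers, has the lowest Rxra, Ppara and Nr1i3, whereas Esr1 in ND + veh animals lies below that of HFD + eRapa animals at like marker levels.

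The partners were next expressed relative to Rxra, as the log2 ratio of their FPKM in each animal, since these receptors share RXRα on DNA; Nr5a2, a monomer, was carried along. In HFD + eRapa against HFD + veh the Ppara to Rxra ratio rose by 0.57 (log2, above the HFD + veh median in 9 of 9 animals, adjusted p = 0.0157). In the same comparison the Nr1h3 to Rxra ratio fell by 0.71 (adjusted p = 0.0311) and the Nr5a2 to Rxra ratio fell by 0.63 (adjusted p = 0.0157), each below the HFD + veh median in 9 of 9 animals (two-sided exact permutation tests, adjusted over 18). Ppara thus gained on Rxra while Nr1h3 and Nr5a2, whose own levels were not called, lost ground to it. In edgeR, Nr1h3 changed by 0.06, Nr5a2 by 0.12 and Rxra by 0.55 (log2), and Rxra was not called with either marker covariate. No ratio was tested with those covariates. The ratios of Nr1h4 (-0.46, adjusted p = 0.0824), Nr1i2 (-0.32, 0.189) and Nr1i3 (0.27, 0.360) did not pass by the same exact test. Against ND + veh, Nr5a2 to Rxra fell by 0.56 in HFD + eRapa (exact permutation, adjusted p = 0.0170), and the other 5 ratios did not pass; as differences of log2 CPM, Nr5a2 lost this call (-0.41, adjusted p = 0.0795) and Ppara gained one (0.45, adjusted p = 0.0311, exact permutation). In HFD + veh against ND + veh, 0 of 6 ratios passed the exact permutation test, 0 had an unadjusted p under 0.05, and each alternative form of the ratio also gave 0. As differences of log2 CPM in place of FPKM ratios, 1 of the 6 (Ppara) passed in HFD + eRapa against HFD + veh, with -0.55 for Nr1h3 (adjusted p = 0.0795, exact permutation) and -0.45 for Nr5a2 (adjusted p = 0.0787, exact permutation).

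**Figure D4:**
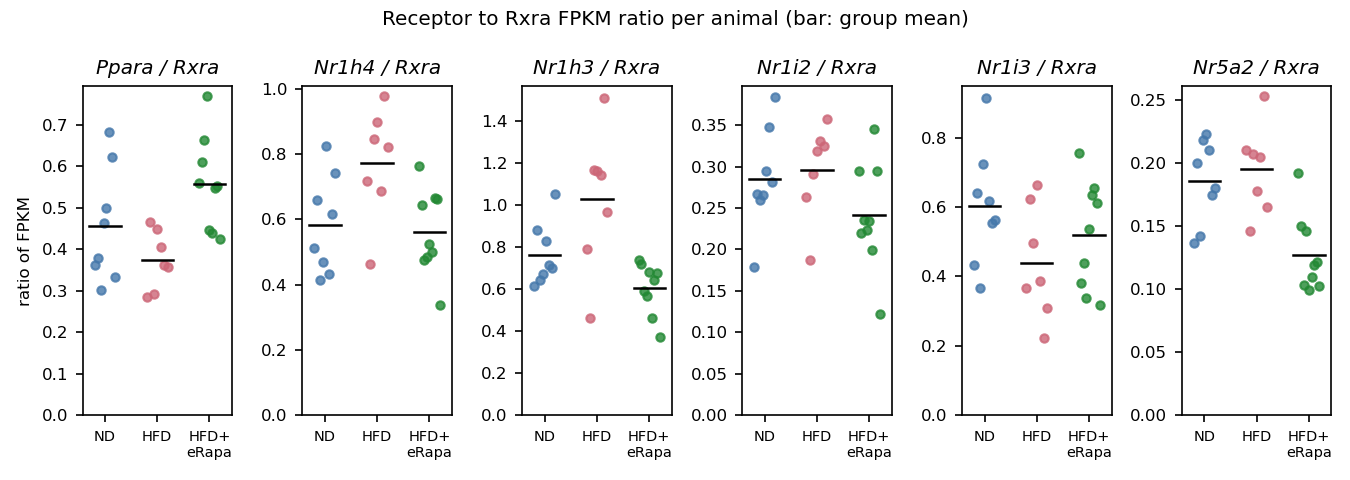
Ratio of the FPKM of 6 receptors to the FPKM of Rxra in each animal (y axis, linear, starting at 0) by group (x axis; ND and HFD are the vehicle groups), with a bar at the group mean. Every HFD + eRapa animal lies below the HFD + veh median for Nr1h3 and Nr5a2 and above it for Ppara.

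Of the 40 other nuclear receptors, 30 passed the filter on low counts and the rest reached at most 2.15 CPM in any library, with Nr0b1, the receptor DAX-1, at 0 counts in all libraries. On the fatty diet 2 of the 30 rose and 1 fell. Nr1d2 (REV-ERBβ, a repressor of the circadian clock) rose by 0.99 (log2, SE 0.21, adjusted p = 0.00296), while Ppard, a relative of PPARα, fell by 1.63 (SE 0.29, adjusted p = 0.000513). With rapamycin on the diet 2 of 30 rose and 3 fell, and the mean of each was under 10 CPM in all groups. Esrrg, an oestrogen-related receptor, rose by 1.45 (log2, to 2.99 CPM) and Nr4a2 by 1.27 (to 1.71 CPM), whereas Nr1h5 fell by 2.45 (to 0.25 CPM), Nr4a1 fell by 1.39 (to 3.76 CPM) and Nr2f1 fell by 1.36 (to 0.30 CPM). Against ND + veh, HFD + eRapa had 1 of 30 higher (Nr1d2, 1.11) and 2 lower (Ppard, -2.05, and Nr1h5, -2.002). In each comparison the share of the 30 that was called lay below the share of all genes called. The share of all genes was 25.9% on the diet, 32.0% with rapamycin on it and 13.5% in HFD + eRapa against ND + veh. With the nonparenchymal covariate the rapamycin changes of Esrrg, Nr4a2, Nr1h5, Nr4a1 and Nr2f1 were not called (adjusted p = 0.0501 to 0.895), and Nr2f1 turned to 0.16. The call of Nr2f1 was also lost without HFD + veh replicate 3, 4 or 6 (up to 0.114), that of Nr4a1 without HFD + veh replicate 1 (0.0561), and that of Nr1h5 against ND + veh on leaving out any one of 7 libraries (up to 0.0690). Hnf4a, the most abundant receptor, was not called, at -0.35 for the diet and 0.42 for rapamycin on the diet (adjusted p = 0.157 and 0.0771).

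Coregulators, which receptors recruit to act on chromatin, were called in 1 of 11, 2 of 11 and 1 of 11 cases for coactivators and in 1 of 8, 1 of 8 and 2 of 8 for corepressors, beside 25.9%, 32.0% and 13.5% of all genes in the 3 comparisons. Of 11 coactivators, 1 rose on the diet: Ppargc1b, by 0.67 (log2, adjusted p = 0.0389). With rapamycin on the diet 2 fell, Ppargc1a, the coactivator PGC-1α, by 0.89 (adjusted p = 0.00525) and Ncoa3 fell by 0.71 (adjusted p = 0.0109), and Ppargc1a was also lower than in ND + veh by 0.78 (adjusted p = 0.0176). Of 8 corepressors, Tbl1xr1, a subunit of a corepressor complex, rose on the diet by 0.58 (adjusted p = 0.0179) and by 0.74 in HFD + eRapa against ND + veh (adjusted p = 0.00292). Nrip1 (RIP140) fell with rapamycin on the diet by 0.63 (adjusted p = 0.00845) and was lower than in ND + veh by 0.57 (adjusted p = 0.0233). With the immune covariate the rapamycin changes of Nrip1 (-0.21, adjusted p = 0.449) and Ncoa3 (-0.14, 0.694) were not called, nor was the diet change of Tbl1xr1 (0.31, 0.313); with the nonparenchymal one the values were -0.15 (0.681), 0.00260 (0.997) and 0.37 (0.129). On leaving out HFD + veh replicate 6, Tbl1xr1 on the diet (adjusted p = 0.0980) and Ncoa3 (0.0620) lost their calls, as did, against ND + veh, Nrip1 without ND + veh replicate 8 (0.0615) and Ppargc1a without ND + veh replicate 6 (0.0526). The diet call of Ppargc1b was lost with voom, without a filter, with only 2 groups, with the block, on both FPKM scales and on leaving out any one of 8 libraries (ND + veh replicates 2, 3, 5, 7 and 8 and HFD + veh replicates 1, 2 and 3; adjusted p of up to 0.114). On the FPKM scales Tbl1xr1 was called neither on the diet (adjusted p = 0.296 and 0.312) nor in HFD + eRapa against ND + veh (0.683 and 0.665), and Ppargc1a and Nrip1 were not called with rapamycin on the diet (0.0545 to 0.0876).

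Genes known as targets of PPARα rose together with Ppara. Of 18 listed, 14 rose and 0 fell in HFD + eRapa against HFD + veh (77.8%, beside 10.9% of all genes called higher), with a median log2 fold change of 0.79 beside -0.04 over all genes. Among them were Pex11a, of peroxisome division (1.15, adjusted p = 2.44e-05), Acot1, an acyl-CoA thioesterase (1.46, adjusted p = 0.000964), and Slc25a20, the carnitine carrier (0.79, adjusted p = 3.58e-05). Against ND + veh 11 rose, among them Vnn1 (pantetheinase, 1.57). The 3 lower were Fgf21 (-2.35), Pdk4 (-1.58) and Acot1 (-0.86). Of all genes, 6.93% were called higher and 6.54% lower in that comparison. On the diet without the drug, 1 rose (Vnn1, 0.78) and 4 fell: Fgf21, a hormone of fasting, by 2.50 (adjusted p = 0.000910), Acot1 fell by 2.32 (adjusted p = 2.27e-05), Pdk4 fell by 1.99 and Angptl4 fell by 1.00. These calls were 27.8% of the list, near the 25.9% of all genes called on the diet. With the nonparenchymal covariate 8 of the 18 were called in HFD + eRapa against HFD + veh, beside 752 of all 13847 genes in that fit. The diet call of Vnn1 was lost with either covariate (adjusted p = 0.249 and 0.0657) and without HFD + veh replicate 6 (0.0663), and that of Pdk4 against ND + veh with the replicate block (0.0512).

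**Figure D5:**
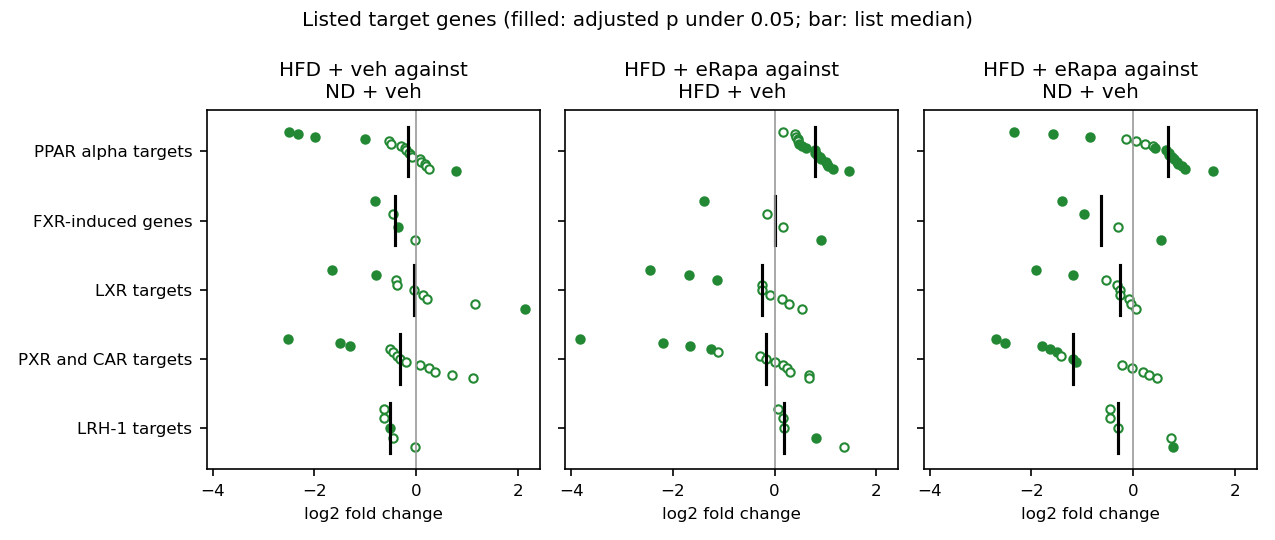
Log2 fold change (x axis) of the listed target genes of 5 receptors (y axis) in the 3 comparisons, each point being 1 gene, filled for an adjusted p under 0.05, with a bar at the median of the list. PPARα targets lie to the right in HFD + eRapa against HFD + veh (median 0.79), and PXR and CAR targets to the left in HFD + eRapa against ND + veh (median -1.18).

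Targets of the other receptors were mixed. Of 5 genes induced through FXR, 4 were tested: Abcb11, the bile salt export pump, fell by 0.81 on the diet (adjusted p = 0.00429) and was lower than in ND + veh by 0.97 in HFD + eRapa (adjusted p = 0.000446), while Abcb4, the phospholipid exporter, fell by 0.36 on the diet (adjusted p = 0.0369) and rose by 0.91 with rapamycin (adjusted p = 3.58e-05). Slc51b, at under 1 CPM, fell by 1.39 with rapamycin on the diet. Of the bile acid synthesis genes that FXR represses, Cyp8b1 rose by 0.81 with rapamycin (adjusted p = 0.0255), and Cyp7a1, the rate-limiting enzyme, had 1.37 (SE 0.57, adjusted p = 0.0687). The rise of Cyp8b1 was 0.36 (adjusted p = 0.406) with the immune and 0.18 (0.746) with the nonparenchymal covariate, and its call was lost without HFD + veh replicate 3, 4 or 6 (up to 0.0603). Slc51b was not called with either covariate (0.199 and 0.306). The diet call of Abcb4 was lost in 7 other settings (adjusted p = 0.0568 to 0.0929) and without any one of ND + veh replicates 4, 6, 7 and 8 and HFD + veh replicates 3, 4 and 6 (up to 0.0762).

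Of 9 LXR targets, 1 rose and 2 fell on the diet, and 0 rose and 3 fell with rapamycin on it. The share called was 33.3% in each of these comparisons, near the 25.9% and 32.0% of all genes called. Scd1, the desaturase of fat synthesis, fell by 1.65 on the diet (adjusted p = 0.000809) and Abcg8, a sterol exporter, fell by 0.79 (adjusted p = 0.0289). Abcg1, a sterol exporter that macrophages also express, rose by 2.14 on the diet (adjusted p = 0.0209). It fell by 2.45 with rapamycin (adjusted p = 0.00592), and with the immune covariate its diet estimate was -0.02. Mylip fell by 1.69 with rapamycin (adjusted p = 0.0136) and had 0.01 with that covariate. The marker scores differ between the groups, so cell makeup and treatment cannot be told apart for Abcg1 and Mylip, and the cause was not tested. In HFD + eRapa, Scd1 (-1.90, adjusted p = 6.37e-05) and Pltp (-1.19, adjusted p = 0.0430) were below ND + veh; Pltp had -0.05 on the diet and fell by 1.14 with rapamycin on it. The call of Pltp against ND + veh was lost with voom, without a filter, with the replicate block, on both FPKM scales and on leaving out any one of 12 libraries (adjusted p of up to 0.108). The diet calls of Abcg8 and Abcg1 were lost without HFD + veh replicate 6 (adjusted p = 0.0583 and 0.0776), that of Abcg8 also without any one of HFD + veh replicates 3 and 4 and ND + veh replicates 5 and 6 (up to 0.0779), and that of Mylip under rapamycin without HFD + veh replicate 6 (adjusted p = 0.0539).

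Of 13 listed targets of PXR or CAR, 0 rose in any of the 3 comparisons. In HFD + veh against ND + veh 3 fell, in HFD + eRapa against HFD + veh 4, and in HFD + eRapa against ND + veh 7. The 3, 4 and 7 of 13 stand beside 9.86%, 21.1% and 6.54% of all genes called lower. As shares of the list they are 23.1%, 30.8% and 53.8%, beside 25.9%, 32.0% and 13.5% of all genes called in either direction. The first 2 are thus near the share of all genes. In HFD + eRapa against ND + veh the median of the list was -1.18 beside -0.03 over all genes. Cyp3a11, a main PXR-induced enzyme, had means of 2785 CPM in ND + veh, 483 in HFD + veh and 485 in HFD + eRapa. It fell by 2.53 on the diet (adjusted p = 0.00145) and did not differ beyond its error with rapamycin on the diet (SE 0.45). Cyp2b10, the classical CAR target, was at 1.23, 2.68 and 0.18 CPM and fell by 3.82 with rapamycin on the diet (adjusted p = 0.000199), while the estimate of Nr1i3 itself in that comparison was above 0. Abcb1a fell by 2.19 in the same comparison and Cyp2c29 fell by 1.496 on the diet. Of 5 LRH-1 targets, Scarb1, the HDL receptor, fell by 0.52 on the diet (adjusted p = 0.0296) and Cyp8b1 rose with rapamycin as given above. The share of this list called was 20.0% in each comparison, beside 25.9%, 32.0% and 13.5% of all genes. The call of Scarb1 was lost with only 2 groups, with both covariates and without any one of ND + veh replicates 3, 5 and 6 and HFD + veh replicates 3, 4 and 6 (adjusted p of up to 0.284).

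The genes whose log2 CPM followed each receptor most closely over the 24 libraries were looked up among 7973 genes of mean log2 CPM of at least 3, as a description, since the points share groups, depth and cell makeup. Ppara was followed by Ddi2 (Pearson r = 0.93, Spearman rho = 0.96) and Bcl2l13 (0.91 and 0.90), and Rxra by Glyctk (0.95 and 0.93) and Twnk (0.93 and 0.87). Nr2f6 had the closest companions, Hpn and Akt1s1 (r = 0.98 each), and Nr1h3 the loosest, Mrpl22 and Mrps23 (r = 0.78 each). Nr1h4 went with Shmt1 (0.90) and Retreg3 (0.86), Nr1i2 with Arl6ip4 and Ccs (0.89 each), Nr1i3 with Mical3 (0.92) and Rhbdd3 (0.91), and Nr5a2 with Adcy9 (0.92) and Xpot (0.87). Esr1 went with Sfxn1 (0.89) and Pcca (0.88), and with group means removed these r values were 0.77 and 0.65.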

How the data were processed

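Polyadenylated RNA of isolated hepatocytes was sequenced from 24 mice. The authors aligned reads to mm10 (Gencode M23) with STAR in its repeated-pass mode, filtered with SAMtools 1.1.0 and deposited raw counts per gene made with HTSeq 0.11.2. The authors' FPKM values came from Cufflinks. Whether counting used strand is not given in the sources used here, and the counts in genes that overlap are uncertain. Intervals cover sampling error among these animals.

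The count test was edgeR 4.0.16 in R 4.3.3 (filterByExpr, TMM, robust glmQLFit, glmQLFTest) on all 24 libraries in 1 fit with 3 groups and no covariate. P-values were adjusted by Benjamini-Hochberg over 13847 genes, and an adjusted p under 0.05 is termed called. The SE is the absolute log2 fold change over the root of F, and 95% intervals used 21 degrees of freedom. CPM used TMM-scaled totals, and log2 CPM a prior count of 2. Pairs of libraries in a group differed beyond sampling noise (chi-square per degree of freedom at least 11.3), so each counted as 1 replicate.

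The 9 receptors and all lists were chosen with earlier results of these data known. The receptors were always named. Of each other list and comparison, called genes with the largest change were named (up to 4 each way for other receptors, up to 2 otherwise), as were the 2 genes most alike to each receptor. Abcg8, Acot1, Angptl4, Slc25a20, Hnf4a and Cyp7a1 were added after their values were seen where these rules did not name them. Some genes that the rules name are not reported here. Alternatives were DESeq2 1.42.0, limma 3.58.1 (voom, or on log2 FPKM), other size factors, no filter, only the groups compared, marker covariates, a replicate block and removal of each library. Marker covariates are mean z-scores of immune, or of endothelial, stellate and cholangiocyte, markers. Scripts were tested on simulated counts.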

Additional observations from a re-analysis of the deposited data

Results flagged for a closer look

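Of 45 groups of receptor values, 2 held an animal set far apart from the rest of its group by Dixon's criterion, where chance alone gives about 2.25. Nr5a2 had a log2 CPM of 5.44 in ND + veh replicate 8, below the 5.92 to 6.17 of the other 7 animals. Nr2f6 had a log2 CPM of 4.48 in HFD + veh replicate 6, below the 5.91 to 6.64 of the other 6 animals, and this is the animal with the highest macrophage marker sum, 4084 CPM. The part of other cell types in this value was not tested.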

How the results depend on the processing

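Of 918 refits of the 9 receptors over the 3 comparisons, 828 kept direction and side of the threshold, 43 lost the call, 20 gained one and 27 changed sign. The receptors called in HFD + eRapa against HFD + veh fell from 3 to 1 with only the 2 groups compared, with a replicate block, and with the immune or the nonparenchymal covariate, and ranged from 1 to 5 on leaving out a library. In HFD + eRapa against ND + veh they fell from 2 to 1 without a filter, with the nonparenchymal covariate and on either FPKM scale, with a range of 1 to 3, and in HFD + veh against ND + veh they ranged from 1 to 3. All genes called numbered 2333 (only the groups compared), 1194 (immune), 1891 (nonparenchymal) and 2340 (log2(FPKM + 0.1)) in HFD + veh against ND + veh, with 2106 without HFD + veh replicate 6 and up to 4479 without other libraries. They numbered 2532 (replicate block), 969 (immune) and 752 (nonparenchymal) in HFD + eRapa against HFD + veh (3269 to 5061 without a library), and 2989 (nonparenchymal) against ND + veh (1462 to 2232). Ratios to Rxra passing fell from 3 to 1 as log2 CPM differences (2 to 4 without a library), and numbered 0 to 2 in HFD + veh against ND + veh and 1 against ND + veh on leaving out a library (as log2 CPM differences also 1, but Ppara in place of Nr5a2). Same-numbered libraries come from different animals and were not paired in the main test. After removal of group means their correlation had a mean of 0.316 for HFD + veh with ND + veh, where 5 of 7 pairs were above 0.1. The mean was -0.245 for HFD + eRapa with HFD + veh (2 of 7 above 0.1) and -0.203 for HFD + eRapa with ND + veh (2 of 8). In edgeR with the replicate block, Ppara in HFD + eRapa against ND + veh had 0.70 (adjusted p = 0.0810) and Nr1h4 0.41 (adjusted p = 0.0325). On log2(FPKM + 0.1) the median of all genes was -0.12 in HFD + eRapa against ND + veh and -0.10 against HFD + veh, beside -0.03 and -0.04 in edgeR.

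Signs turned mostly for values near 0. With the immune covariate Rxra on the diet had 0.11, Abcg1 -0.020, and under rapamycin Nr1h3 -0.016, Nr5a2 -0.060 and Mylip 0.00834. With the nonparenchymal covariate the rapamycin values on the diet were -0.00305 for Nr1h4, -0.073 for Nr1h3, -0.13 for Nr5a2, 0.28 for Abcg1, 0.29 for Mylip, 0.00260 for Ncoa3 and 0.16 for Nr2f1, and Nr1i3 had -0.085 against ND + veh. Nr1h3 on the diet had -0.027 without a filter, -0.00268 with 2 groups and -0.00187 and -0.00185 on the FPKM scales, where it had -0.0294 and -0.0298 under rapamycin and -0.0313 and -0.0317 against ND + veh. The Nr1h4 to Rxra ratio against ND + veh was 0.025 over the sum of RXR genes and 0.090 as a log2 CPM difference. On leaving out a library, signs turned within -0.051 to 0.079 (Nr1h4) and -0.071 to 0.037 (Nr1h3) on the diet, -0.090 to 0.030 (Nr2f6, HFD + eRapa against ND + veh), -0.031 to 0.17 (Nr1i2 to Rxra on the diet) and -0.12 to 0.036 (Nr1h4 to Rxra against ND + veh). The cause of these changes was not tested.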
